A study of Homo sapiens with 8 samples.

Results

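Culture A and culture B are biological replicates, by their labels, of one NALM6 line, and the comparison between them measures how far replicate cultures of a leukemia line stood apart in their RNA. NALM6 is a long-established line from a human leukemia of B-cell precursors. It carried a doxycycline-inducible construct for wild-type (WT) HMGN1, a protein that binds nucleosomes. Each culture gave 2 poly(A) libraries, 1 labelled vehicle and 1 labelled DOX (doxycycline at 100 ng/ml), both taken at 6 h, so 4 of the series' 8 libraries are WT. The other 4 come from cultures A and B of a second NALM6 line, whose inducible HMGN1 is a mutant with serines 20 and 24 changed to glutamate, here called SE, which does not bind nucleosomes. All 8 samples carry an inducible HMGN1 construct, came from equal cell numbers and received 1 µl of ERCC spike-in RNA diluted 1000-fold. The 4 libraries were taken by their line and culture letters alone, while the marker genes and gene lists below were chosen with earlier results of these data known. The labels do not say how the cultures were kept apart or whether a line is 1 clone.

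A cell line is a population kept by repeated dilution and regrowth, and sublines of one leukemia line are known to differ in which genes they keep on or off. Genes read in such a comparison include those that mark the lineage and those that serve growth. NALM6 stands at the stage where a B-cell precursor expresses the surrogate light chain, the recombination enzymes and the transcription factor PAX5.

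Values are unnormalized FPKM, that is fragment counts divided by transcript length and by the library's mapped fragments. Differences are culture A minus culture B on the scale log2(FPKM + 0.1), with treatment as a term, from limma fitted to all 8 libraries over 11042 genes. A gene is called here when its Benjamini-Hochberg adjusted p is below 0.05. The spread behind each p is that between libraries, not between cultures: there is 1 culture on each side, and an exact permutation of 2 libraries against 2 cannot go below p = 0.333. Differences of genes under about 1 FPKM are understated by the added 0.1.

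HMGN1, the gene of the construct, was level in the WT cultures. Its FPKM was 809 in vehicle and 793 in DOX in culture A, and 796 and 795 in culture B, a difference of 0.01 on the log2 scale (95% interval -0.07 to 0.09, limma adjusted p = 0.841). It was no higher in the libraries labelled DOX than in those labelled vehicle, so the treatment labels have no check from HMGN1, and no direction below is drawn from them. In the SE line the same gene stood at 1427 and 1421 FPKM in culture A and 1066 and 1061 in culture B.

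MSH6, DDIT4L, NPY and TMPRSS3 are the marker genes of the WT cultures. MSH6 and TMPRSS3 were higher in culture A, and DDIT4L and NPY were higher in culture B, each by 4- to 6-fold. They were picked for this difference, so their p-values below only describe it. The 250 bases before each gene's annotated start (RefSeq, GRCh38.p14) are shown to give the regulatory context of these 4 genes, with every CG dinucleotide in capitals. CG reads as CG on both strands, and it is the site of DNA methylation. The first stretch is chr2:47782895-47783144 on the plus strand with 34 CG, the next is chr4:100190469-100190718 on the minus strand with 13 CG, the NPY stretch is chr7:24283940-24284189 on the plus strand with 24 CG, and the last is chr21:42389150-42389399 on the minus strand with 6 CG.
MSH6: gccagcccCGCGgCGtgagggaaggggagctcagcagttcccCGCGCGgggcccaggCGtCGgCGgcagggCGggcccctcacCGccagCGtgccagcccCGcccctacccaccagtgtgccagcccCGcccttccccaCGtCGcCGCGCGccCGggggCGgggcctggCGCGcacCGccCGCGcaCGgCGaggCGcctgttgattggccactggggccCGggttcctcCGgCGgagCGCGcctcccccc
DDIT4L: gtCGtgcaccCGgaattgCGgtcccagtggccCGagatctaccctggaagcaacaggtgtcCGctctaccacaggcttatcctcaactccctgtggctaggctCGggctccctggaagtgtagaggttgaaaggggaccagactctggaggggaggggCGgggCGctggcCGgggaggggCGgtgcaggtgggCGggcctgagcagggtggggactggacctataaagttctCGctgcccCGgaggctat
NPY: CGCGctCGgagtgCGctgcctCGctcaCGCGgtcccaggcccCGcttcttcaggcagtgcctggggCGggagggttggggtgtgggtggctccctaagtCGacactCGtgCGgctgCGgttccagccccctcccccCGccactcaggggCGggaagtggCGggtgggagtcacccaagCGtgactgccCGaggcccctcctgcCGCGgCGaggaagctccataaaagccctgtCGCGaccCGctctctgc
TMPRSS3: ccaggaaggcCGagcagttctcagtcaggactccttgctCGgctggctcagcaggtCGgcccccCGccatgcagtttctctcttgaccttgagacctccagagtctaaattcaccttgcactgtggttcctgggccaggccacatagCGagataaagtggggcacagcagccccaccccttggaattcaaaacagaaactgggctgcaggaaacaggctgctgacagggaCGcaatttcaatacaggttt
Of all 27305 promoters of this length in the table, 93.6% hold at least 1 CG, with a median of 11. The median was 21 over the 8809 tested genes with an entry, 19 over the 1591 with an entry in the lowest of 5 equal classes by level, and 13 over the 89 with an entry among the 116 genes that differed by at least 2-fold. Methylation was not measured, and the CG counts are a description of these windows.

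MSH6, a protein that recognises base mismatches in DNA, stood at 36.3 and 36.6 FPKM in the vehicle and DOX libraries of culture A and at 7.70 and 7.90 in those of culture B. Both B libraries lay far below both A libraries. The difference was 2.21 (SE of the estimate 0.03, limma adjusted p = 4.89e-09), or 4.63-fold. The 4 SE-line libraries held 30.9 to 37.5 FPKM, at the level of culture A.

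DDIT4L, a relative of DDIT4 and an inhibitor of mTORC1 signalling, stood at 5.55 and 5.64 FPKM in culture A and at 33.3 and 34.2 in culture B. The difference was -2.57 (SE of the estimate 0.03, limma adjusted p = 3.95e-09), 5.94-fold lower in A, with no overlap. In the SE line it was 36.1 and 35.4 FPKM in culture A and 23.3 and 22.3 in culture B, so there the A libraries were the higher ones. Its relative DDIT4 was higher in WT culture A by 0.24 (57.1 and 53.1 FPKM against 47.3 and 45.6).

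NPY encodes neuropeptide Y, a secreted peptide known from neurons and also expressed in some B-precursor leukemias. It stood at 11.5 and 12.3 FPKM in culture A and at 50.5 and 47.0 in culture B, a difference of -2.02 (SE of the estimate 0.05, limma adjusted p = 9.31e-08). The SE libraries ran from 52.6 to 64.9, above culture B. TMPRSS3, a membrane-bound serine protease, stood at 11.9 and 11.8 FPKM in culture A and 1.98 and 2.0 in culture B, a difference of 2.52 (SE of the estimate 0.06, limma adjusted p = 1.01e-07). The SE libraries held 5.33 and 5.57 in culture A and 2.69 and 3.11 in culture B, between the WT cultures and in the same order.

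**Figure D1:**
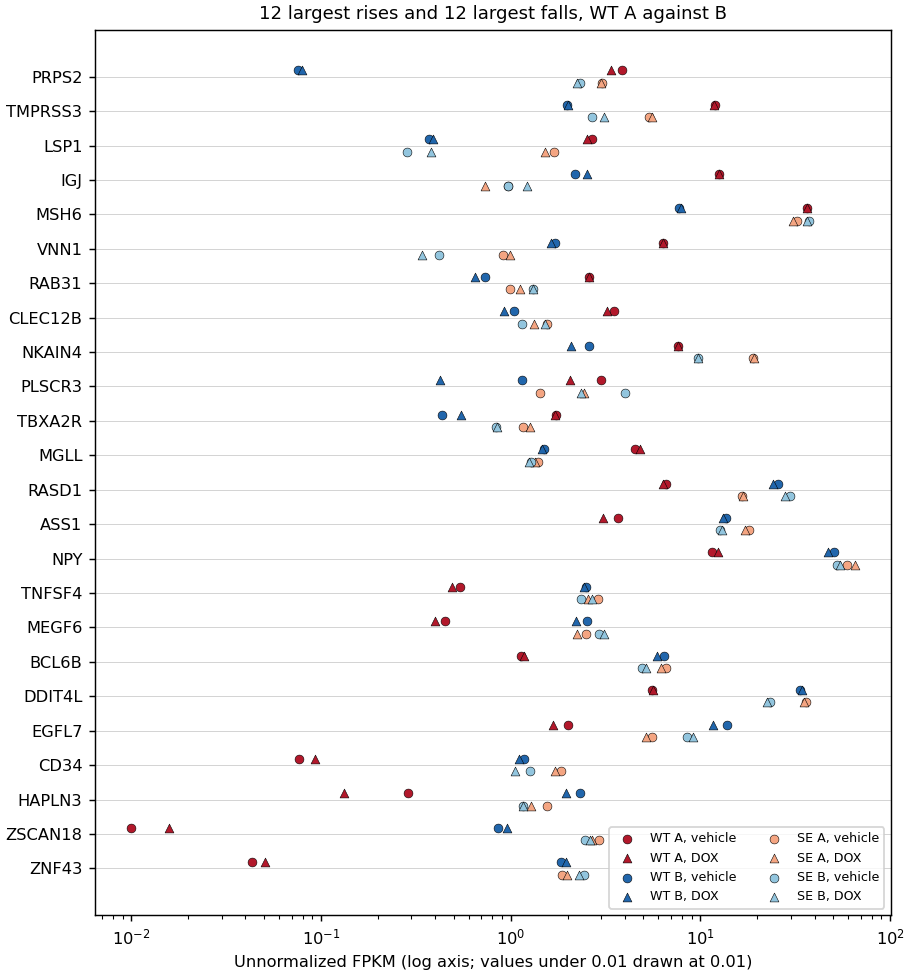
Unnormalized FPKM (log axis) in each of the 8 libraries for the 12 largest rises and 12 largest falls of WT culture A against B. Circles are vehicle and triangles DOX libraries, dark red and dark blue are WT cultures A and B, and pale red and pale blue are SE cultures A and B. These rows were picked among called genes whose A and B libraries do not overlap. The dark red and the dark blue points therefore stand on separate sides in every row. MSH6 stood at 36.3 and 36.6 FPKM against 7.70 and 7.90.

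Across the transcriptome the cultures differed in many genes by little and in few genes by much. Of 11042 genes, 5064 were called, 45.9%, with 2588 higher in A (23.4%) and 2476 lower (22.4%). The median size of a called difference was 0.23 on the log2 scale, or 1.17-fold, and 92.2% of called genes differed by under 1.5-fold. At least 2-fold differences were called for 116 genes, 1.05%, of which 64 were higher and 52 lower in A. In 115 of these 116 the A and B libraries did not overlap, against 75.3% of all genes tested, though the same libraries picked the 116. The exception was H3F3A, whose row shares sequence with near-identical copies.

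The vehicle pair and the DOX pair share no library, and their culture differences were alike across genes but not equal. Across genes, which are not independent replicates, the pair differences had Pearson r = 0.757 and Spearman rho = 0.809, and 82.1% of genes had one sign in both. All 116 of the 2-fold genes had the same sign in both pairs, though these pairs also enter the fit that picked them. The SD over genes of A minus B was 0.305 in vehicle and 0.295 in DOX. The SD of DOX minus vehicle was 0.102 within culture A and 0.171 within culture B. At least 2-fold differences made up 1.13% and 1.22% of genes between cultures, and 0.0543% and 0.145% within them.

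**Figure D2:**
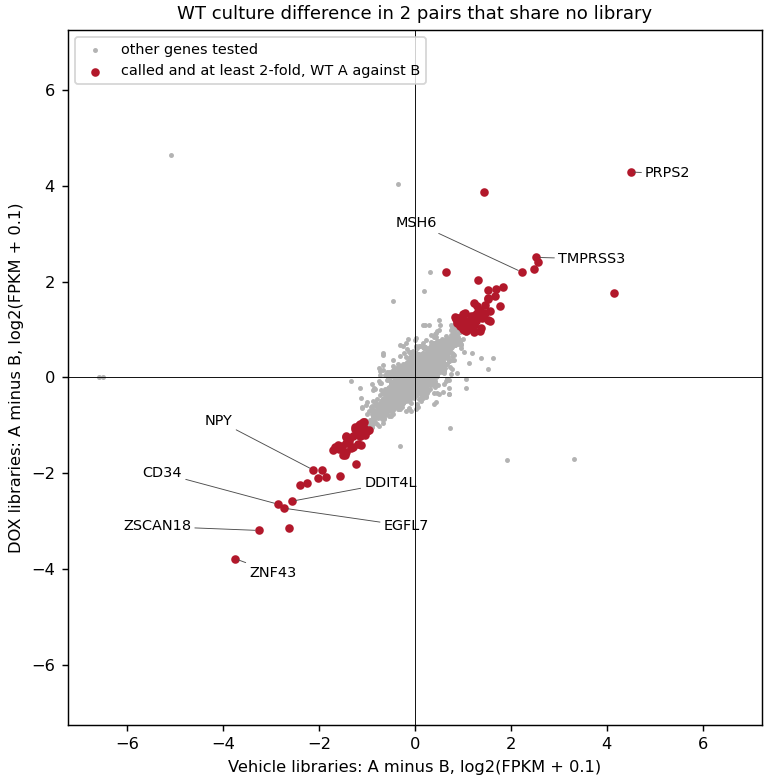
Culture difference (A minus B, log2(FPKM + 0.1)) of each tested gene in the vehicle libraries (x axis) and in the DOX libraries (y axis) of the WT line. Red points are the 116 genes called with at least a 2-fold difference and grey points all other genes tested. Most red points lie near the diagonal at the lower left and the upper right, with PRPS2 at one end and ZNF43 at the other. Among those off it are H3F3A (4.16 in vehicle, 1.77 in DOX) and FKBP1A-SDCBP2 (1.44 and 3.86).

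Genes of low level made up most of the large differences. Of the 116 genes, 75 lay in the lowest of 5 equal classes by mean FPKM (1.0 to 4.77), 22 in the next class and 4 in the highest. Calls at any size went the other way, with 37.8% of genes called in the lowest class and 54.2% in the highest. Just inside the 2-fold limit lay KIT at -1.0 and CERK at 1.01, and just outside it lay TLR9 and KIAA1161, both at 0.99.

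The 12 largest rises of culture A, taken among called genes whose cultures do not overlap, were led by PRPS2. H3F3A (2.96), whose cultures overlap, and the read-through row FKBP1A-SDCBP2 (2.65) were left out. PRPS2 makes phosphoribosyl pyrophosphate for nucleotide synthesis. It stood at 3.87 and 3.39 FPKM in culture A and at 0.0761 and 0.0797 in culture B, a difference of 4.39 (SE of the estimate 0.11, limma adjusted p = 1.01e-07), and at 2.24 to 3.04 in the SE libraries. Of the 4 cultures in the series, WT culture B is the one with PRPS2 under 0.1 FPKM. The paralog PRPS1 stood at 65.0 and 65.8 FPKM in A and 59.2 and 59.3 in B, a difference of 0.14.

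LSP1, an actin-binding protein of leukocytes, stood at 2.67 and 2.52 FPKM in A and 0.371 and 0.392 in B (difference 2.49). IGJ, the joining chain of polymeric immunoglobulins, stood at 12.6 and 12.5 in A and 2.17 and 2.52 in B (2.37). VNN1, an enzyme that releases pantothenate from pantetheine, stood at 6.35 and 6.34 in A and 1.72 and 1.64 in B (1.86). These 3 genes had tight A values and B values well below them, and VNN2, the gene next to VNN1 in the reference order and related to it, was also higher in A by 1.19. The other rises were RAB31, a GTPase of vesicle transport (1.76), CLEC12B, a lectin-like receptor (1.69), NKAIN4 (1.67), PLSCR3, a mitochondrial phospholipid scramblase (1.67), TBXA2R, the thromboxane A2 receptor (1.63), and MGLL, which splits monoacylglycerols (1.59). PLSCR3 varied most within cultures, with 2.99 and 2.05 FPKM in A and 1.15 and 0.424 in B. Its limma adjusted p of 0.00233 became 0.0811 with no filter on level and 0.102 with robust estimation of the spread.

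The largest falls were of 2 zinc finger genes. ZNF43 stood at 0.0431 and 0.0508 FPKM in culture A and 1.83 and 1.96 in culture B, a difference of -3.76 (SE of the estimate 0.12, limma adjusted p = 3.94e-07). ZSCAN18 was listed at 0 and 0.0159 in A and at 0.858 and 0.956 in B, a difference of -3.22 on the scale with 0.1 added. Both genes were near 0 in culture A. Their WT means lie below 1 FPKM, so they passed the level filter only through the SE libraries. No conclusion is drawn from their comparison with the SE line.

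CD34, the surface glycoprotein of stem and progenitor cells, stood at 0.0765 and 0.0930 FPKM in A and 1.18 and 1.1 in B (difference -2.75), and it too passed the level filter only through the SE libraries. EGFL7, a secreted protein best known from endothelium, stood at 2.0 and 1.68 in A and 13.8 and 11.7 in B (-2.72). BCL6B, a repressor related to BCL6, stood at 1.14 and 1.17 in A and 6.44 and 5.94 in B (-2.33). ASS1, which makes argininosuccinate on the way to arginine, stood at 3.69 and 3.05 in A and 13.6 and 13.2 in B (-1.97). For EGFL7, BCL6B and ASS1, on the log2 scale, the SE libraries lay nearer to culture B. The remaining falls were HAPLN3, a link protein of hyaluronan (-2.89), MEGF6 (-2.23), TNFSF4, the ligand of OX40 (-2.06), and RASD1, a Ras-like GTPase induced by glucocorticoids (-1.93).

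The other mismatch repair genes differed far less than MSH6. Of the 22 tested members of the list, 5 were called higher and 4 lower in culture A, 40.9% against 45.9% of all genes, with a median of 0.02, and 10 higher and 0 lower on the spike-in scale described below. MSH6 alone passed 2-fold. MSH3, which recognises larger loops, differed by -0.02 and was not called. PMS2, an endonuclease of the pathway, was called at 0.14, RPA3 at 0.34 and PCNA at -0.25, the last losing its call on the spike-in scale (-0.01, limma adjusted p = 0.94).

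In the families of the other 3 marker genes, the marker was the 1 member past 2-fold. Among 28 tested genes of mTORC1 and its regulators, 6 were higher and 6 lower in A, 42.9% in all against 45.9% of all genes (11 and 1 on the spike-in scale). DDIT4L was in front. AKT1S1, a subunit that restrains mTORC1, was called at 0.34 and SESN2, a sensor of leucine, at -0.27. Only 3 of 31 neuropeptide and hormone rows passed the level filter, and NPY was the 1 called. The rows of its receptors NPY1R, NPY2R and NPY5R were listed at 0 in the vehicle library of culture A. Of 4 tested transmembrane serine proteases and their inhibitors, 3 were higher in A. Those were TMPRSS3, TMPRSS6 (0.42) and the inhibitor SPINT2 (0.18), and TMPRSS6 and SPINT2 lost the call when either DOX library was left out (0.36 with limma adjusted p of 0.0926 or 0.0884, and 0.09 with 0.36).

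Genes of protein synthesis were higher in culture A. Of 78 tested cytosolic ribosomal protein genes, 73 were called higher and 0 lower, against 23.4% and 22.4% of all genes, with a median difference of 0.28 against -0.01 over all genes tested. Their summed FPKM was 159499 and 158217 in culture A and 133098 and 127424 in culture B. Both A sums exceeded both B sums, and 5 genes were not called, among them RPL10, RPL21 and RPL39. RPL13A led with 891 and 911 FPKM in A and 512 and 479 in B (0.86), followed by RPL13 (0.49) and RPL36 (0.46). Ribosomal protein genes have many processed pseudogenes that can share their reads, so single members are uncertain. The SE line had a median of -0.04 for this list, and 68 of the 78 genes had a culture difference that was higher in WT than in SE by the test of the difference.

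Mitochondrial genes encoded in the nucleus showed the same direction at smaller size. The shares over all genes were 23.4% called higher and 22.4% lower. Of 76 mitochondrial ribosomal protein genes, 50 were higher and 5 lower in A with a median of 0.17, led by MRPS27 (116 and 114 FPKM against 74.7 and 74.1, 0.63). Of 76 respiratory chain genes, 48 were higher and 1 lower with a median of 0.14, led by NDUFA7 of complex I (0.47), UQCRB of complex III (0.41) and SDHC of complex II (0.36). In the SE line the medians of these lists were -0.18 and -0.17, on the other side of 0. The ribosomal and respiratory genes are short, with a median transcript of 682 bases for the cytosolic list, and the shortest of 5 equal length classes of all genes had a median of 0.02 against -0.03 in the longest. The part of length in the list medians was not tested.

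Mitotic genes were called lower in culture A on the unnormalized scale but not on the spike-in scale. With the shift of all genes on the spike-in scale, described below, taken off, their median there was -0.22. Of 36 G2/M and mitosis genes, 29 were called lower and 0 higher, against 22.4% and 23.4% of all genes, with a median of -0.23, while on the spike-in scale 0 were called and the median was 0.0036. In the SE line 24 were lower and 1 higher in culture A, with a median of -0.15. AURKB, the kinase of the chromosomal passenger complex, stood at 63.4 and 64.9 FPKM in A and 91.7 and 88.9 in B (-0.49). TOP2A, which untangles DNA before chromosomes part, differed by -0.38 and the separase gene ESPL1 by -0.39. The G1/S and DNA replication list was divided on the unnormalized scale, with 9 higher and 14 lower of 40 and a median of -0.02, against 13 higher and 0 lower and 0.21 on the spike-in scale, and there CCNE1 was higher (0.55) and CCND3 lower (-0.41). CCND3 and E2F2 (-0.39) were not called on the spike-in scale, at -0.18 and -0.16.

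The spike-in scale moves all genes together. The authors also deposited a table normalized to spike-ins, in which the median of A minus B over all genes was 0.22 (0.21 in vehicle and 0.24 in DOX) instead of -0.01. The summed spike-in FPKM in the unnormalized table was 5675 and 5733 in culture A and 6657 and 6748 in culture B. On that scale 4887 genes were called, 4628 higher and 259 lower in A, so 94.7% of calls were higher instead of 51.1%. The spread there was taken from a gene's level alone, with the highest SE of the estimate 2.18 times the lowest. The SE of the estimate was larger there, with a median of 0.108 against 0.0435. For AURKB it was 0.125 there and 0.032 on the unnormalized scale. A call lost on the spike-in scale thus rests on a wider spread as well as on the shift, and the adjusted p-values of the scales are not comparable. All 116 of the 2-fold genes kept their direction and their call there, and 95 were still at least 2-fold. Relative to the shift the list medians stayed close to those above, at 0.30 for cytosolic ribosomal proteins and -0.22 for G2/M genes. Without taking off the shift, the median was above 0 for every list with at least 10 tested members except MHC class II (-0.01). More RNA per cell and a difference in cell or spike-in amount cannot be told apart here.

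**Figure D3:**
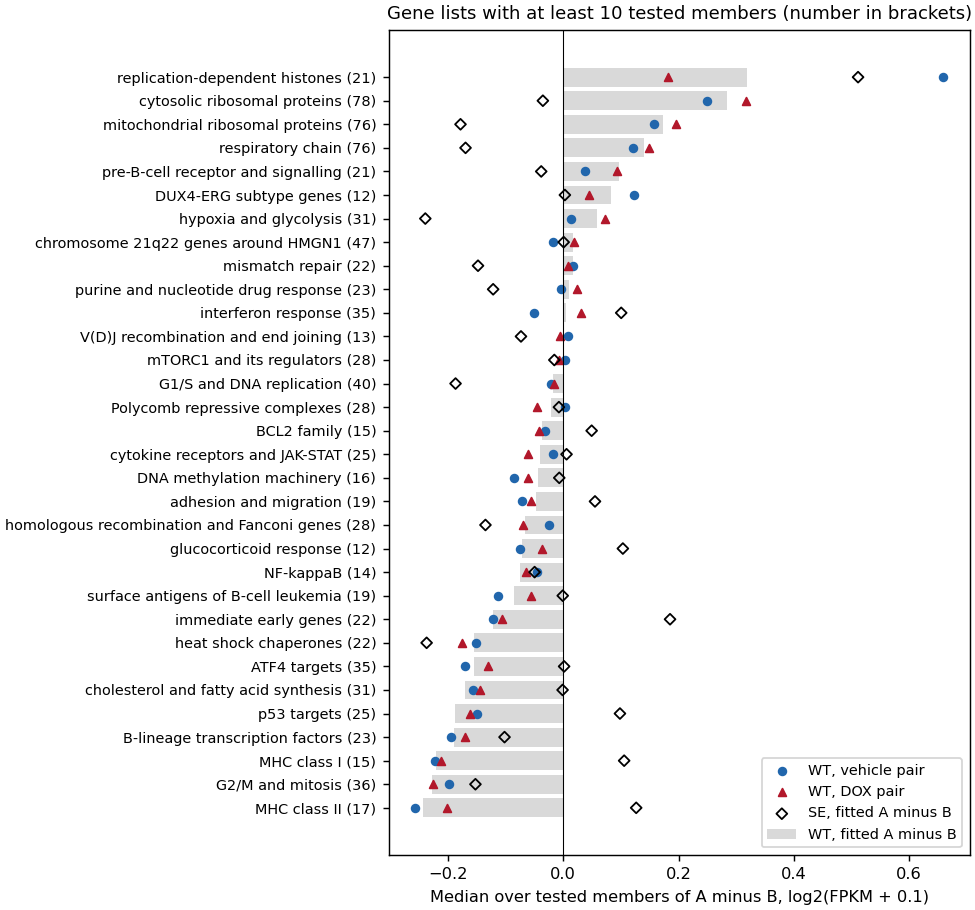
Median over tested members of culture A minus B, on the log2(FPKM + 0.1) scale, for each gene list with at least 10 tested members (number in brackets). Grey bars are the fitted WT difference, blue circles the WT vehicle pair, red triangles the WT DOX pair and open diamonds the SE line. The bars for cytosolic ribosomal proteins (0.28) and MHC class II (-0.24) stand near opposite ends, with the SE diamonds on the other side of 0 for both.

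Genes of antigen presentation were lower in culture A. Of 17 tested MHC class II genes and regulators, 12 were called lower and 0 higher, 70.6% in all against 45.9% of all genes, with a median of -0.24, and on the spike-in scale 3 were lower with a median of -0.01. HLA-DQB1 stood at 1.18 and 1.36 FPKM in A and 3.24 and 3.58 in B (-1.36), HLA-DPB1 at 16.7 and 17.6 against 26.0 and 25.3 (-0.58), and HLA-DMB, which loads peptides, differed by -0.51. CIITA, the master activator of class II genes, differed by -0.26 and lost that call on the spike-in scale (-0.03). Of 15 MHC class I genes, 11 were lower and 1 higher, 80.0% in all, with a median of -0.22, or 3 lower and 2 higher with a median of 0.0066 on the spike-in scale. HLA-B stood at 177 and 168 FPKM in A and 337 and 331 in B (-0.95), and HLA-F differed by -1.06, and both were called lower in A on the spike-in scale. HLA genes are alike and vary between people, so their FPKM is uncertain. In the SE line the medians were 0.13 and 0.11, and 12 of 17 class II and 10 of 15 class I genes had a lower culture difference in WT than in SE by the test of the difference.

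Both cultures expressed genes of B-lineage identity. PAX5 stood at 83.4 and 87.0 FPKM in A and 95.6 and 102 in B. Of 23 tested lineage transcription factors, 6 were higher and 15 lower in A, 91.3% in all against 45.9% of all genes, with a median of -0.19, which on the spike-in scale became 6 higher and 2 lower with a median of 0.04. POU2F2, an octamer-binding factor, stood at 7.03 and 6.76 FPKM in A and 2.49 and 2.60 in B (1.40), and SPIB at 14.2 and 14.3 against 7.11 and 6.50 (1.06). Both exceeded 2-fold and were higher in A on either scale. ID3, an inhibitor of E proteins, was lower at 51.5 and 51.9 against 85.2 and 80.5 (-0.68).

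Genes of the pre-B-cell receptor and its signalling had 11 called higher and 6 lower of 21, 81.0% against 45.9% of all genes, with a median of 0.10, and 11 higher and 0 lower on the spike-in scale. FCRLA, an Fc receptor-like protein of B cells, stood at 118 and 117 FPKM in A and 58.1 and 56.5 in B (1.03), and the adaptor BLNK at 84.6 and 84.7 against 58.9 and 57.0 (0.55). CD72, an inhibitory coreceptor, differed by 0.45. The surrogate light chain genes VPREB1 and IGLL1 both differed by -0.14. Of 19 tested surface antigens, 5 were higher and 9 lower (5 and 5 on the spike-in scale), with CD34, the receptor gene KIT (1.42 and 1.52 against 3.08 and 3.0 FPKM, -1.0) and MS4A1, which encodes CD20 (5.26 and 5.10 against 2.97 and 3.16, 0.74), in front. CD34 and KIT are markers of early progenitors, and MS4A1 of later B cells. Among 13 recombination genes, 3 were higher and 6 lower (4 and 2 on the spike-in scale), DNTT, which adds bases at the joints, at 130 and 130 FPKM against 239 and 231 (-0.85) and RAG1 at 71.2 and 73.1 against 104 and 109 (-0.56). RAG2, its partner, was not called (0.04).

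The genes of the DUX4-ERG leukemia subtype, the subtype that NALM6 is assigned to, were all called, 6 higher and 6 lower of 12 tested, 100% against 45.9% of all genes, and 6 and 4 on the spike-in scale. Beside DDIT4L and CLEC12B, ITGA6, an integrin chain, stood at 5.46 and 5.03 FPKM in A and 15.2 and 15.5 in B (-1.53). S100A16, a calcium-binding protein, stood at 8.80 and 9.52 against 26.9 and 25.4 (-1.50). ERG itself was lower in A, at 16.7 and 17.5 against 27.0 and 27.8 (-0.67). The subtype's list was compiled with earlier results of these data known, so its share of calls stands only as a count.

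Cytokine and interferon lists held large differences in both directions. The 4 lists here had 51.4% to 68.2% of members called, against 45.9% of all genes. Among all 11042 genes, 23.4% were higher and 22.4% lower, and 4628 were higher and 259 lower on the spike-in scale. Of 25 tested cytokine receptor and JAK-STAT genes 8 were higher and 9 lower (12 and 1 on the spike-in scale), and the feedback inhibitors went opposite ways, SOCS1 at 1.98 and 1.86 FPKM against 0.746 and 0.673 (1.32) and SOCS2 at 27.7 and 28.3 against 50.7 and 49.9 (-0.84). IL2RG, the common receptor chain, differed by 0.63. Of 14 genes of NF-kappaB signalling 3 were higher and 5 lower, with the feedback inhibitor TNFAIP3 at 8.58 and 8.75 against 22.9 and 22.4 (-1.38) and NFKBIZ at -0.97. Of 22 immediate early genes 5 were higher and 10 lower, with the ERK phosphatase DUSP6 at 10.2 and 10.2 against 21.5 and 21.2 (-1.06). On the spike-in scale the NF-kappaB counts were 5 higher and 2 lower and the immediate early counts 6 and 3. Of 35 interferon response genes 10 were higher and 8 lower (15 and 4 on the spike-in scale), led by XAF1 (1.58), IFI16, a DNA sensor (28.4 and 29.1 against 62.0 and 63.8, -1.13), and OAS1 (0.85).

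Stress and metabolic lists had more members called lower than higher in culture A on the unnormalized scale, and fewer on the spike-in scale. Of all 11042 genes, 22.4% were lower and 23.4% higher, and 259 were lower and 4628 higher on the spike-in scale. With the shift of all genes there taken off, the medians were -0.14 for ATF4 targets and for heat shock chaperones. They were -0.16 for cholesterol and fatty acid synthesis and -0.18 for p53 targets. The ATF4 targets had 21 of 35 lower and 3 higher with a median of -0.16, which became 2 lower and 4 higher with a median of 0.07 on the spike-in scale. CHAC1, which degrades glutathione, differed by -0.68 and VLDLR, a lipoprotein receptor, by -0.57. Heat shock chaperones had 15 of 22 lower and 1 higher with a median of -0.15, or 0 lower and 1 higher and 0.08 on the spike-in scale. HSPH1 led at -0.44, followed by HSPA1A and HSPA1B, which are near-identical copies. Cholesterol and fatty acid synthesis genes had 20 of 31 lower and 5 higher with a median of -0.17, or 0 lower and 7 higher and 0.06 on the spike-in scale. In that list HMGCS1, of the sterol pathway, differed by -0.46 and ELOVL6, a fatty acid elongase, by 0.63, and HMGCS1 was not called on the spike-in scale. The p53 targets had 12 of 25 lower and 4 higher (median -0.19), or 1 lower and 7 higher (0.03) on the spike-in scale.

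Further lists had small medians on the unnormalized scale, from -0.07 for glucocorticoid response to 0.06 for hypoxia and glycolysis genes. Over all 11042 genes, 23.4% were called higher and 22.4% lower, and 4628 were higher and 259 lower on the spike-in scale. The counts of these lists were not all near those shares. Among purine and nucleotide drug genes, 6 were higher and 7 lower of 23 (10 and 0 on the spike-in scale), and PRPS2 alone exceeded 2-fold. Hypoxia and glycolysis genes had 7 higher and 2 lower of 31 (16 and 1 on the spike-in scale), with ENO2, an enolase, lower at 1.44 and 1.41 FPKM against 3.89 and 3.58 (-1.33). Polycomb genes had 8 higher and 9 lower of 28 (12 and 0 on the spike-in scale), with PCGF2 at 0.75. DNA methylation genes had 1 higher and 7 lower of 16 (4 and 1 on the spike-in scale), with the chromatin remodeller HELLS at -0.51, DNMT3B at -0.35 and TET2 at 0.30, of which DNMT3B was not called on the spike-in scale. BCL2 family genes had 4 higher and 5 lower of 15 (5 and 1 on the spike-in scale), with HRK at -0.67, BIK at 0.57 and BCL2 at -0.45, the last not called on the spike-in scale (-0.22, limma adjusted p = 0.0569). Homologous recombination and Fanconi genes had 1 higher and 9 lower of 28 (7 and 0 on the spike-in scale), adhesion genes 3 and 6 of 19 (5 and 3), and glucocorticoid response genes 4 and 4 of 12 (5 and 2). The adhesion list was led by ITGA6 and ESAM, an adhesion molecule of endothelium and progenitors (-1.16), and the glucocorticoid list by the receptor NR3C1 (-0.63).

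HMGN family and chromosome 21q22 genes were divided on the unnormalized scale. For comparison, 23.4% of all 11042 genes were called higher and 22.4% lower, and 4628 higher and 259 lower on the spike-in scale. HMGN2 stood at 469 and 474 FPKM in A and 656 and 620 in B (-0.44), HMGN5 differed by -0.29, HMGN4 by -0.21 and HMGN3 by 0.12, and the 3 lower ones were not called on the spike-in scale, where HMGN4 stood at 0.02. Of 47 tested genes around HMGN1, 17 were higher and 16 lower with a median of 0.02, or 21 higher and 2 lower with 0.24 on the spike-in scale. Replication-dependent histones had 8 higher and 0 lower of 21, and their median of 0.32 was 0.66 in the vehicle pair and 0.18 in the DOX pair. In the SE line 13 were higher and 0 lower in culture A, with a median of 0.51. HIST1H4J and HIST1H4K, at 1.03 and 1.01, are near-identical copies and count as 1 measurement.

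Markers of T, myeloid, erythroid and adherent cells were sparse in both cultures, while those of plasma cells were not. Of 11 T cell rows 2 passed the filter, and the summed FPKM of the list was 8.68 and 8.76 in A and 13.0 and 12.8 in B, carried by GATA3 and LCK (-1.11), while CD3D, CD3G, CD8A, CD8B, CD7 and CD2 were listed at 0 in the vehicle library of culture A. Of 15 myeloid rows 3 passed, with sums of 7.85 and 7.72 in A and 4.85 and 4.81 in B, carried by LYZ (4.62 and 3.96 against 1.56 and 1.68, 1.35), while the defining granule genes MPO and ELANE were listed at 0.0167 and 0 there. No erythroid row of 13 passed, with a highest WT value of 0.0647 and 9 rows at 0 in all WT libraries. The T cell list had 5 rows and the myeloid list 6 at 0 in all WT libraries. Of 16 adherent cell rows 3 passed, with sums between 5.27 and 5.82 in all WT libraries. Of 9 plasma cell rows 6 passed, with sums of 645 and 634 in A and 591 and 578 in B. IGJ was the one beyond 2-fold, with MZB1 at 0.26 and SDC1 at -0.29. Fewer cells of a type and less RNA per cell cannot be told apart in bulk libraries.

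Neighbours of the marker genes differed far less than the marker genes did. Gene order was taken from the RefSeq table of another build, which matched 10763 of 11042 genes (97.5%). MSH6 at 2.21 is followed by FBXO11 at -0.19, and DDIT4L at -2.57 next to H2AFZ at -0.29 and PPP3CA at -0.12. NPY at -2.02 lies between FAM221A at 0.15 and OSBPL3 at -0.13, and TMPRSS3 at 2.52 between ABCG1 at 0.28 and SLC37A1 at 0.64. Small called differences ran in the marker's direction for 4 of the 6 nearest tested neighbours of TMPRSS3, with WDR4 called the other way (-0.16), and for 4 of the 6 of DDIT4L. PRPS2 at 4.39 is followed by TMSB4X at 0.20 and preceded by MSL3 at 0.07, and ZNF43 at -3.76 lies among other zinc finger genes, with ZNF100 at -0.22 before it. BCYRN1, near MSH6, read 1.83 but was not called (limma adjusted p = 0.176), with 0 FPKM in 1 of its B libraries.

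**Figure D4:**
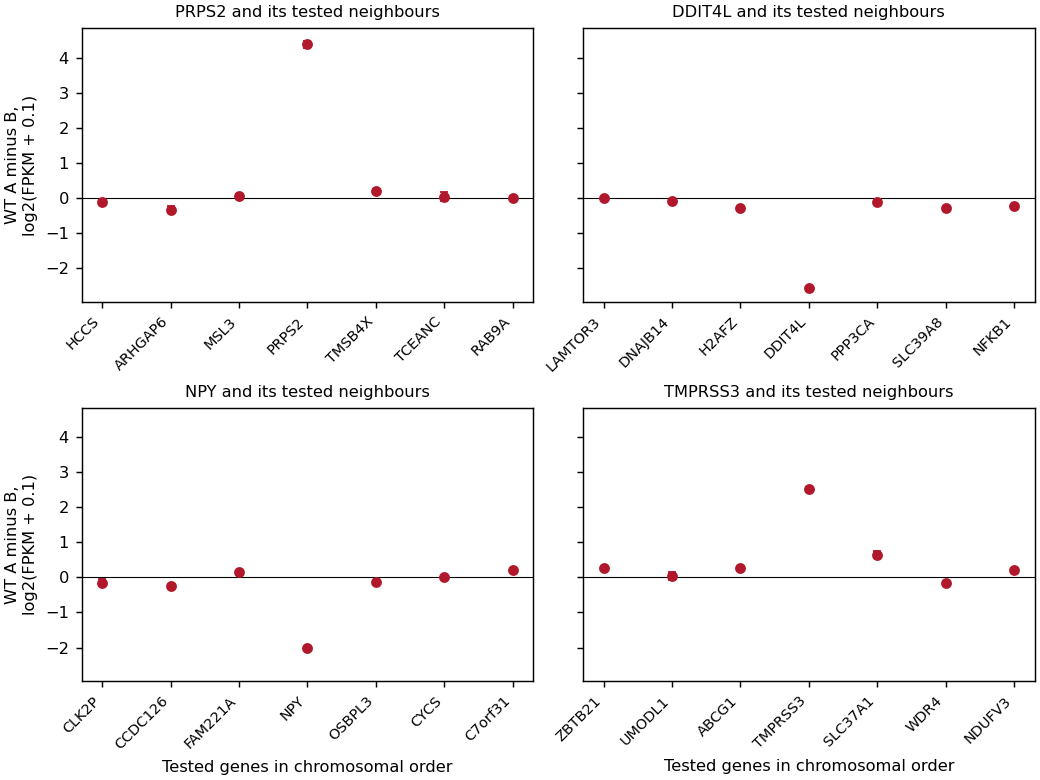
WT culture A minus B (log2(FPKM + 0.1)) for PRPS2, DDIT4L, NPY and TMPRSS3, each with the 3 tested genes on either side in reference order. Points are fitted differences and bars the standard error of the estimate. Each gene differs by far more than its neighbours, as PRPS2 at 4.39 beside TMSB4X at 0.20.

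Chromosome medians stayed near 0, from -0.04 on chromosome 18 to 0.03 on chromosome 16. In runs of 25 neighbouring tested genes, the central 95% of medians lay between -0.11 and 0.10. The lowest run, from PPT2-EGFL8 to COL11A2 on chromosome 6, spans the MHC class II genes and had a median of -0.27 (-0.33 in vehicle, -0.20 in DOX), with 4 of 25 genes higher in A. The same run had a median of 0.17 in the SE line. The highest run, from SLC25A23 to TIMM44 on chromosome 19, had a median of 0.23. Among genes at least 2-fold apart, adjacent pairs were VNN1 and VNN2, CLEC12B and KLRK1 (1.33), DLX1 (-1.37) and ITGA6, HLA-DQB1 and HLA-DQB2 (-1.15), LCN10 (-1.55) and LCN6 (-1.26), and the histone copies, each pair with one direction.

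The SE line gave a comparison of its own cultures A and B, and the labels do not tie a letter in one line to that letter in the other. There 4454 genes were called, 40.3%, and 42 were at least 2-fold apart, 0.38%. Across genes the WT and SE differences had r = 0.076 and rho = -0.0027. Of the 116 WT genes, 46 were called in the same direction in SE, 29 in the opposite direction and 41 were not called. The test of the difference between the culture effects called 4909 genes, 44.5%, and 171 of them at 2-fold or more, 1.55%. By that test 111 of the 116 differed between the lines, 74 of them by at least 2-fold. The 116 were picked for their WT difference, which is part of the quantity tested, so this share only describes them. Of the 116, 9 also passed the level filter only through the SE libraries. The 5 that were not called were LSP1, C8orf44-SGK3, FCER2, MXRA7 and VGF, and LSP1 stood at 1.70 and 1.52 FPKM in SE culture A and 0.284 and 0.382 in SE culture B.

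Each SE library was also set against the midpoint of the WT cultures, for the 107 of the 116 genes with a mean of at least 1 FPKM over the WT libraries, since the filter over 8 libraries keeps the other 9 only through the SE line. This limit was set after seeing the data. For 73 of the 107 all 4 SE libraries lay on the side of culture B, for 15 on the side of culture A, and for 19 they were divided. Over all 10942 tested genes with that WT mean the shares were 41.5%, 15.1% and 43.4%. In most of these the cultures lie closer to the midpoint than in the 107, so the shares are not of like sets. MSH6 and PRPS2 were among the genes where the SE libraries stood with culture A, and DDIT4L and NPY among those where they stood with culture B.

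**Figure D5:**
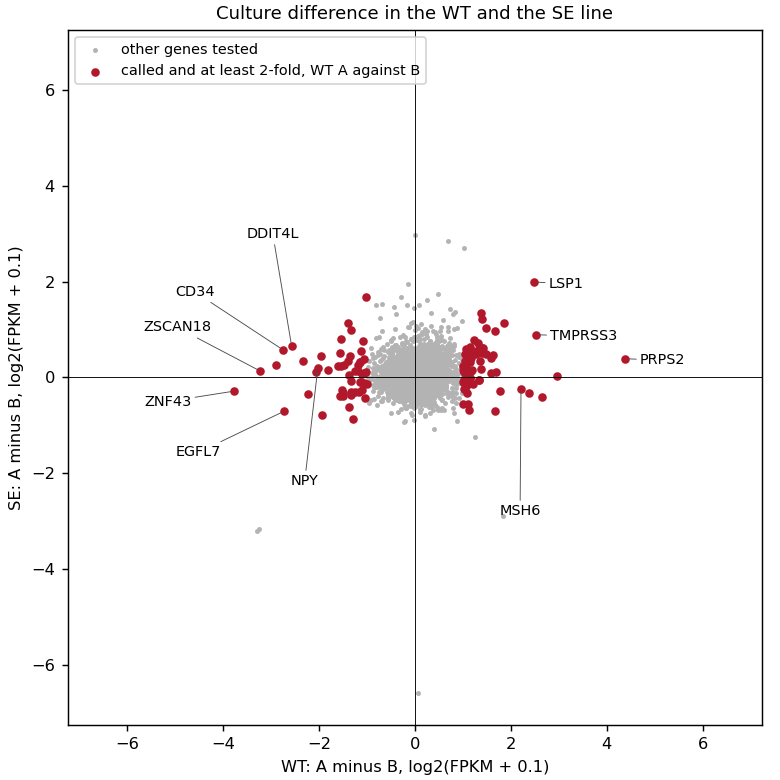
Culture A minus B (log2(FPKM + 0.1)) of each tested gene in the WT line (x axis) and in the SE line (y axis). Red points are the 116 genes at least 2-fold apart in WT and grey points all other genes tested. The red points were picked for their WT difference, so their wider spread along the x axis follows from that choice. Over all genes tested the SD was 0.282 in WT and 0.230 in SE. Some lie well off 0 in SE, such as LOC256021 at -1.02 in WT and 1.67 in SE. LSP1 lies high in both lines at 2.49 and 1.99.

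Depth is unknown, since FPKM tables carry no counts, and no counting interval can be given. In the 4 WT libraries the median of log2(FPKM + 0.1) lay between 3.93 and 3.94, and 4 to 7 tested genes were listed at 0. The summed FPKM of tested genes was 543654 to 584502. Beside them, 2 rows outside the genes tested, MIR1244-2 and MIR1244-3, singled out after their values were seen, read 213889 and 214697 in the vehicle library of culture A and 280005 and 281073 in that of culture B. Their part in the other differences was not tested. The 95% intervals of single genes had a median half-width of 0.0995, and 5948 genes had an unadjusted p below 0.05.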

How the data were processed

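RNA of 8 NALM6 samples was sequenced from poly(A) TruSeq libraries, per the labels' protocols. The authors deposited FPKM per gene, unnormalized and spike-in normalized, and the tools and genome, per the submitters' processing notes, were HISAT with Cufflinks 2.0.0, and hg19. Each table has 23713 rows, and unmapped sample columns numbered 0. The normalization method and the kit's handling of strand are not given in the sources used here, so antisense and overlapping genes are uncertain. Left out were 92 ERCC rows, 1715 rows with small RNA names and rows with a mean below 1 FPKM over the 8 libraries.

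The 11042 genes left were analysed as log2(FPKM + 0.1) with limma 3.58.1 in R 4.3.3 (trend), with a mean, a culture and a treatment term within each line (2 residual degrees of freedom, prior 6.43) and Benjamini-Hochberg adjustment over all genes at 0.05. Groups come from genotype and replicate labels. The fit was tested on simulated data. Named are MSH6, DDIT4L, NPY, TMPRSS3, HMGN1, the 12 largest rises and falls whose cultures do not overlap (unclear or near-identical rows skipped), up to 3 called members per list, and neighbours. Members and lists were chosen with earlier results of these data known. Alternatives were the spike-in table, equal medians, other pseudocounts and filters, other treatment terms, robust estimation and leaving out libraries. Transcript lengths and promoters come from GENCODE v29 and RefSeq tables, and length was looked at after seeing the data. Values of some genes are not reported here.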

Additional observations from a re-analysis of the deposited data

Results flagged for a closer look

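The culture difference was tested for being unequal between the WT and the SE line, and results that passed are given here as the WT value of A minus B less the SE value, on the log2(FPKM + 0.1) scale. Over all genes, 4909 of 11042 differed between the lines by this limma test. Among the marker genes the values were 2.44 for MSH6, -3.22 for DDIT4L, -2.23 for NPY and 1.62 for TMPRSS3. HMGN1 gave -0.41, with WT cultures that were level and SE culture A above SE culture B. Among the largest rises of WT culture A the values were 4.0 for PRPS2, 2.70 for IGJ, 0.72 for VNN1, 2.05 for RAB31, 1.57 for CLEC12B, 0.71 for NKAIN4, 2.36 for PLSCR3, 1.16 for TBXA2R and 1.49 for MGLL. Among the largest falls they were -3.48 for ZNF43, -3.36 for ZSCAN18, -3.15 for HAPLN3, -3.32 for CD34, -2.02 for EGFL7, -2.67 for BCL6B, -1.89 for MEGF6, -2.17 for TNFSF4, -2.41 for ASS1 and -1.15 for RASD1. ZNF43, ZSCAN18 and CD34 passed the level filter only through the SE libraries, so for them part of that difference was needed to be tested at all. No conclusion is drawn from their values. The marker genes and the 24 largest were picked for their WT difference, which is part of the value tested. That they passed therefore only describes them. LSP1 is the only one of the 24 largest that did not pass (limma adjusted p = 0.095).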

How the results depend on the processing

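The count of genes called in WT stayed within 1.5 times of 5064 under every alternative run, from 3467 with no filter to 5519 with no treatment term, which is the fit without the replicate block, since libraries 1 and 2 of a culture are its vehicle and DOX libraries. That fit gave 115 genes at 2-fold and 5359 for the difference between lines. The 2-fold count of 116 moved to 54 with a pseudocount of 1, 41 with a mean of at least 5 and 201 with no filter. The difference between lines was called for 8504 genes on the spike-in scale and 3240 with no filter, against 4909. The median over all genes was 0.219 on the spike-in scale, -0.00169 with equal medians, 0 with no filter and -0.00373 to -0.00182 without single libraries. Leaving out 1 library gave 3497 to 3655 calls, 124 to 134 at 2-fold and 3852 to 4320 for the difference. HMGN1, not called, ran from -0.00443 to 0.0238 without single WT libraries, the negative value without the vehicle library of either culture, and HMGN4 to 0.0181 on the spike-in scale. On that scale HMGN4 and 23 other genes named from the lists lost their call, all of them lower in A on the unnormalized scale. The causes were not tested, beyond fewer or more genes under other filters.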

Other observations

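Genes at least 2-fold apart in both lines were 7, or 6.03% of those in WT and 16.7% of those in SE, and 5 had one direction. These genes, and the others in this section, were chosen after their values were seen. LSP1, VNN1, LILRB4, FCER2 and MXRA7 were higher in culture A of both lines. LILRB4, an inhibitory receptor of the immunoglobulin family, differed by 1.49 in WT and 1.02 in SE, and FCER2, the low-affinity IgE receptor CD23, by 1.39 and 1.22. PTPRC, the CD45 phosphatase, went opposite ways, with 2.15 and 2.30 FPKM in WT culture A, 5.99 and 6.06 in WT culture B, 1.93 and 2.33 in SE culture A and 0.962 and 0.854 in SE culture B.

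Several immune genes were 2-fold apart in WT. KLRK1, an activating receptor of natural killer cells, stood at 45.2 and 43.0 FPKM in A and 17.3 and 17.6 in B, and HCST, the adaptor it signals through, at 5.99 and 5.90 against 2.30 and 2.97. TLR10 was higher in A (1.34) and GZMA, a granule protease, lower (-1.52). RPP30, a subunit of RNase P, stood at 25.5 and 24.1 in A and 10.6 and 10.6 in B, with its neighbours KIF20B at -0.12 and PCGF5 at -0.10.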
